A study of Drosophila melanogaster with 6 samples.

Results

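The genes described here act in triglyceride lipolysis and in the mitochondrial and peroxisomal oxidation of fatty acids. They were chosen by name as 9 genes, bmm, whd, CPT2, Acsl, Mtpbeta, yip2, scu, Acox57D-d and Acox57D-p, of 13402 genes with an array row annotated to them alone. Each had exactly 1 such row, and all 9 were bright enough to be among the 10051 genes tested. The palm fruit juice group consisted of Drosophila melanogaster larvae of the strain w1118 raised from the egg on a semi-purified diet with palm fruit juice, a water extract of oil palm fruit. The control group was the same strain on that diet alone. Larvae of both groups were taken at 5 days, and each group had 3 arrays, each with whole-body RNA pooled from 3 to 4 larvae. The sex of the larvae was not given in the sources used here, and the pools do not show the spread between single larvae. The values are log2 expression values, so that 1 unit is a 2-fold step. They rank arrays for a given gene, and levels of different genes were compared only to set dim genes apart.

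Triglyceride is stored in lipid droplets, mainly in the fat body, the insect tissue that combines functions of liver and adipose tissue. Lipases release fatty acids from it, acyl-CoA synthetases activate them, and carnitine carries long chains into mitochondria, where a repeated cycle of dehydrogenation, hydration, a further dehydrogenation and thiolysis shortens them to acetyl-CoA. Very long chains are first shortened in peroxisomes, where acyl-CoA oxidases carry out the opening step. In larvae the fat body builds up the store on which the animal draws during metamorphosis, when it does not feed.

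No gene of the array passed limma's test at adjusted p under 0.05 (0 of 10051, or 0% called), although 470 had an unadjusted p under 0.05, and the unmoderated test also called 0. The precision of every value was limited by the number of arrays. A pair of arrays stood apart. Genes whose level departed 2-fold or more from their average on the remaining arrays numbered 440 in palm fruit juice replicate 2 and 536 in control replicate 1, against 54 to 178 elsewhere. Of 6 fat body markers listed, the 3 with a row of their own (Lsp2, Fbp1 and Fbp2) averaged 11.28 to 11.42 in juice arrays and 11.49 to 11.64 in control arrays. Of 6 muscle markers listed, the 4 measured averaged 10.43 to 10.90 in juice arrays and 9.93 to 10.34 in control arrays. Markers of muscle, midgut, neurons, oenocytes and haemocytes had means above 2.63, the limit under which a gene was left out as dim. In bulk samples, fewer cells of a type and less RNA per cell cannot be told apart.

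The peroxisomal oxidase gene Acox57D-p had a 1.54-fold higher mean in juice-fed larvae, and was the only member whose juice arrays all lay above its control arrays, beside 4.96% of all tested genes. The other 8 members overlapped between the groups, and 10% of all tested genes did not overlap in 1 direction or the other. The lipase gene bmm had a lower mean in juice larvae, but its 3 juice pools were spread over 1.05 log2 units. In each of the 5 mitochondrial members the juice and control means differed by at most 0.20, and all 5 were highest in the same array, palm fruit juice replicate 2. At unadjusted p under 0.05, 1 of 9 members passed, where 4.68% of all tested genes did. At adjusted p under 0.05 no member passed, with a smallest adjusted p of 0.931 by limma.

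**Figure D1:**
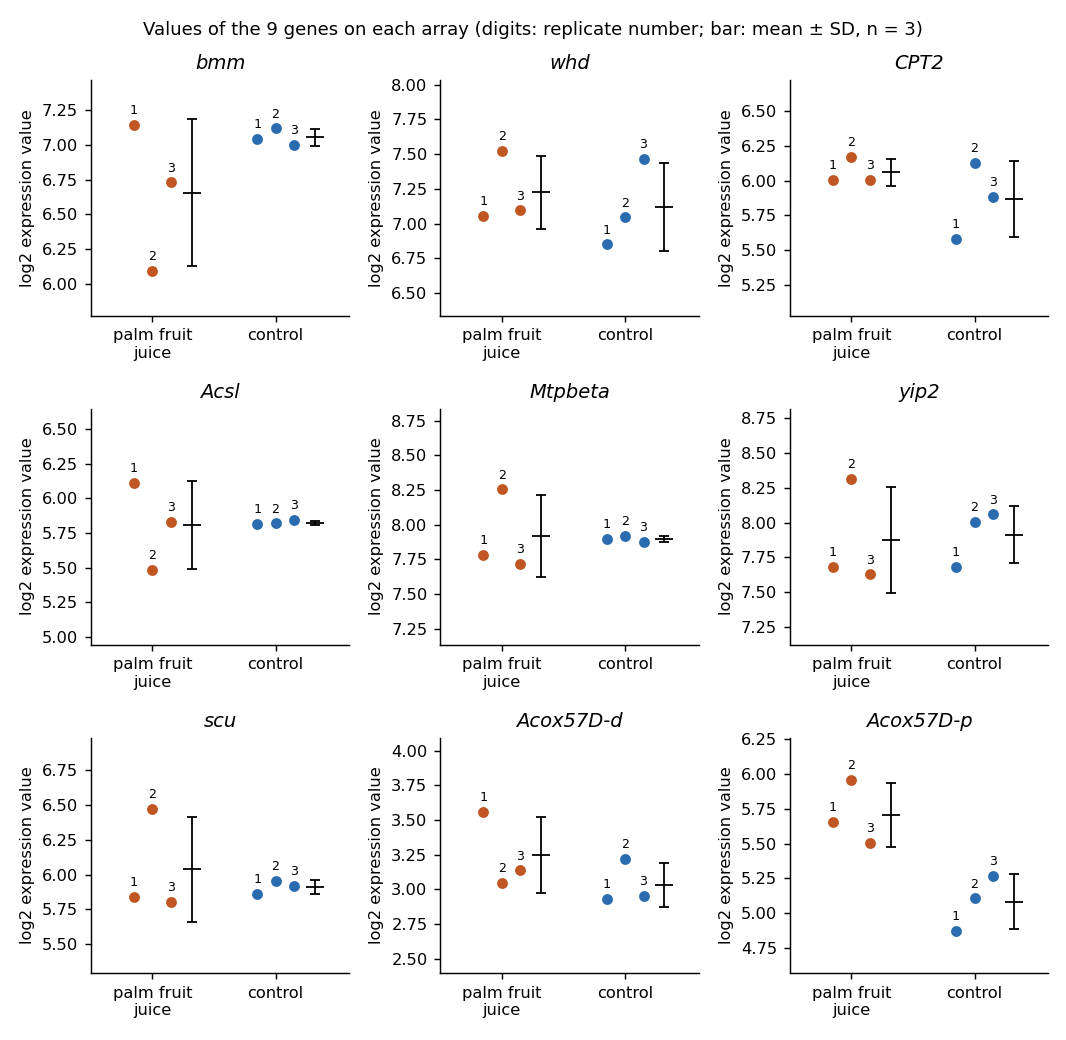
Log2 expression value of each of the 9 genes (vertical axis, the same span in every panel) on the 3 palm fruit juice arrays and the 3 control arrays, with the replicate number above each point and the mean ± SD beside it. Acox57D-p is the only gene whose groups do not overlap, and in bmm, Acsl, Mtpbeta and scu the control points lie close together while the juice points are spread.

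The gene bmm, or brummer (CG5295), encodes the triglyceride lipase of lipid droplets and is the fly counterpart of mammalian adipose triglyceride lipase. It measured 7.14, 6.09 and 6.73 in palm fruit juice replicates 1, 2 and 3, against 7.04, 7.12 and 7.001 in the control replicates. Juice replicates 2 and 3 were the lowest arrays, juice replicate 1 was the highest of all 6, and the groups overlapped. The means were 6.66 ± 0.53 in juice and 7.05 ± 0.06 in control larvae (SD, n = 3 each). The difference was -0.40 ± 0.26 (SE), with a 95% interval of -1.01 to 0.21, and did not pass limma's test (unadjusted p = 0.167, adjusted p = 0.931). Leaving out juice replicate 2 reduced it to -0.12, and leaving out juice replicate 1 gave -0.64, with an unadjusted p of 0.0262 (limma).

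Acsl (CG8732), a long-chain acyl-CoA synthetase, activates fatty acids for oxidation as well as for lipid synthesis. It measured 6.11, 5.48 and 5.83 in juice replicates 1, 2 and 3, against 5.81, 5.82 and 5.84 in the control replicates. The order of the juice arrays was that of bmm, with replicate 1 highest and replicate 2 lowest of all 6 arrays, and the controls lay between them. The means of 5.81 ± 0.32 and 5.82 ± 0.02 (SD, n = 3 each) gave a difference of -0.02 ± 0.18 (SE), with a 95% interval of -0.44 to 0.41. Its sign turned under quantile normalization (0.0014) or equal array medians (0.022), so no direction can be given.

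Entry of long-chain acyl groups into mitochondria depends on a pair of carnitine palmitoyltransferases. The outer one is encoded by whd, or withered (CG12891), and is the regulated step of the pathway. It measured 7.05, 7.52 and 7.09 in juice replicates 1, 2 and 3, against 6.85, 7.04 and 7.47 in the control replicates. The highest array of each group, juice replicate 2 and control replicate 3, reached almost the same value, and the groups overlapped. The difference was 0.10 ± 0.21 (SE; limma, unadjusted p = 0.643), and without juice replicate 2 it was -0.05.

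CPT2 (CG2107), the inner carnitine palmitoyltransferase, measured 6.002, 6.17 and 6.01 in juice replicates 1, 2 and 3, against 5.58, 6.13 and 5.88 in the control replicates. The juice arrays lay close together, and control replicate 2 lay inside their range. The difference was 0.20 ± 0.17 (SE; limma, unadjusted p = 0.297). It was 0.05 without control replicate 1, the lowest array.

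Inside the mitochondrion, Mtpbeta (CG4581) encodes the thiolase subunit of the trifunctional protein, which handles long chains. It measured 7.78, 8.25 and 7.72 in juice replicates 1, 2 and 3, against 7.90, 7.92 and 7.88 in the control replicates. Juice replicate 2 lay above every control array and the other juice arrays below every control array. The means of 7.92 ± 0.29 in juice and 7.90 ± 0.02 in control larvae (SD, n = 3 each) differed by 0.02 ± 0.17 (SE), with a 95% interval of -0.39 to 0.43.

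The gene yip2 (CG4600) encodes a further thiolase, of the acetyl-CoA acyltransferase type. It measured 7.68, 8.32 and 7.63 in juice replicates 1, 2 and 3, against 7.68, 8.004 and 8.06 in the control replicates. The groups overlapped, with juice replicate 2 highest and juice replicate 3 lowest of all 6 arrays. The difference was -0.04 ± 0.22 (SE; limma, unadjusted p = 0.863), and it ran from -0.26 to 0.08 when single arrays were left out.

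The gene scu, or scully (CG7113), encodes a mitochondrial hydroxyacyl-CoA dehydrogenase of short chains, a protein that in flies and mammals also takes part in the processing of mitochondrial tRNA. It measured 5.84, 6.47 and 5.80 in juice replicates 1, 2 and 3, against 5.86, 5.95 and 5.92 in the control replicates. As in Mtpbeta, juice replicate 2 stood above all control arrays and the other juice arrays below them. The difference was 0.13 ± 0.20 (SE; limma, unadjusted p = 0.554), and without juice replicate 2 it was -0.09.

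**Figure D2:**
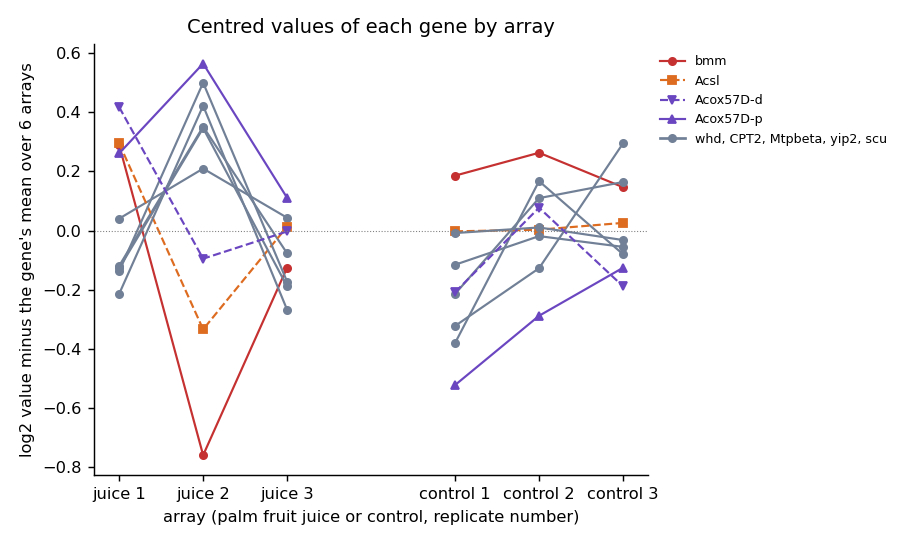
Log2 value of each gene minus its mean over the 6 arrays (vertical axis), by array (horizontal axis), where lines join the values of a gene within a group and imply no order of the replicates. In palm fruit juice replicate 2 the 5 mitochondrial genes (grey) lie above their means, by 0.37 on average, while bmm and Acsl lie at -0.76 and -0.33.

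The mitochondrial members all lay above their own means in juice replicate 2 and all below them in control replicate 1, and were mixed in the other 4 arrays. Relative to each gene's own mean, whd, CPT2, Mtpbeta, yip2 and scu averaged -0.11, 0.37 and -0.13 in juice replicates 1, 2 and 3, against -0.21, 0.03 and 0.06 in the control replicates. Juice replicate 2 was the highest array in 5 of these 5 genes and in Acox57D-p, and the lowest array in bmm and Acsl. Over all tested genes, it was the highest array in 27.1% and the lowest in 23.2%. The juice arrays spanned more than the control arrays in 7 of 9 members, all but whd and CPT2, against 62.3% of all tested genes. The median span of the members was 0.54 in juice and 0.29 in control arrays, beside 0.45 and 0.32 over all tested genes. These are descriptions of 6 arrays, and members that share an array's deviation are not independent.

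Some marker lists also had their extreme values in juice replicate 2, the highest array in 27.1% and the lowest in 23.2% of all tested genes. Neuronal markers were at their lowest there in 4 of 4 genes measured of 5 listed (elav, nSyb, brp and Rdl), and the mean of the list was 3.87 to 4.68 in juice arrays and 4.48 to 4.80 in control arrays. Of 6 midgut markers 4 were highest there, with list means of 7.16 to 7.70 in juice and 6.86 to 7.64 in control arrays. Of 4 muscle markers measured, of 6 listed, 1 was highest there, and the list averaged 10.43 to 10.90 in juice and 9.93 to 10.34 in control arrays. Of 3 oenocyte markers measured, of 4 listed, 2 were highest there, with list means of 5.31 to 5.94 in juice and 5.47 to 5.58 in control arrays. Of 3 fat body markers measured, of 6 listed, 0 were highest and 0 were lowest there. Of 5 haemocyte markers, 1 was highest and 0 were lowest there. No marker of these lists lay below the dim limit. Their part in the pattern of the members was not tested.

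The peroxisomal pair Acox57D-p and Acox57D-d are neighbouring genes for acyl-CoA oxidases, the enzymes of the opening step of peroxisomal oxidation, in which electrons pass to oxygen and hydrogen peroxide forms. Acox57D-p (CG9707), the proximal gene, measured 5.65, 5.96 and 5.50 in juice replicates 1, 2 and 3, against 4.87, 5.10 and 5.27 in the control replicates. Every juice array lay above every control array, and the nearest pair, juice replicate 3 and control replicate 3, stood 0.24 apart. The means were 5.71 ± 0.23 in juice and 5.08 ± 0.20 in control larvae (SD, n = 3 each), a difference of 0.62 ± 0.18 (SE) with a 95% interval of 0.21 to 1.04. It ranked 51 of 10051 genes by unadjusted p (0.00954) and did not pass after adjustment over all genes (limma, adjusted p = 0.931). The two-sided exact permutation test of this gene gave p = 0.1, the smallest that 3 arrays against 3 allow. Any gene whose groups do not overlap, 10% of all tested genes, gets this value, so it restates the lack of overlap.

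The difference of Acox57D-p kept its direction in each of 16 alternatives, from 0.39 to 0.73, with unadjusted p from 0.00755 to 0.0606 and adjusted p from 0.668 to 0.998 (limma). The lowest of these values, 0.39, was obtained without control replicate 1 and juice replicate 2 together, and was the only one with an unadjusted p above 0.05. As all juice arrays lay above all control arrays, leaving out or weighting arrays could change the size of the difference but not its direction. Among the marker lists, muscle had a higher mean in juice larvae in 4 of 4 genes, oenocytes in 3 of 3 and midgut in 5 of 6. Without juice replicate 2 these counts were 4 of 4, 2 of 3 and 3 of 6. Fat body markers had a lower mean in 3 of 3 genes, neuronal markers in 3 of 4 and haemocyte markers in 3 of 5. Without that array these counts were 3 of 3, 2 of 4 and 4 of 5. Fbp2 measured 12.06 ± 0.14 in juice and 12.34 ± 0.08 in control larvae, and Mlc2 11.74 ± 0.25 and 11.09 ± 0.25 in juice and control larvae (SD, n = 3 each). The 4 muscle markers (Mlc1, Mlc2, up and Mf) differed by 0.57 to 0.65. All 4 were at unadjusted p under 0.05 (limma), beside 4.68% of all tested genes, and 0 passed after adjustment. That count was 2 of 4 without juice replicate 2, and 0 of 4 without it and control replicate 1. The part of the markers in the difference of Acox57D-p was not tested.

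Acox57D-d (CG9709), the distal gene, measured 3.56, 3.04 and 3.14 in juice replicates 1, 2 and 3, against 2.93, 3.22 and 2.95 in the control replicates. The groups overlapped, and control replicate 2 exceeded a pair of the juice arrays. All 6 values lay above the dim limit of 2.63. The difference was 0.21 ± 0.18 (SE; limma, unadjusted p = 0.279), with a 95% interval of -0.21 to 0.64, so a difference as large as that of Acox57D-p was within its interval. The highest juice array was replicate 1 in Acox57D-d and replicate 2 in Acox57D-p. Each row was annotated to its gene alone, but whether probes of the neighbours cross-react was not tested.

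**Figure D3:**
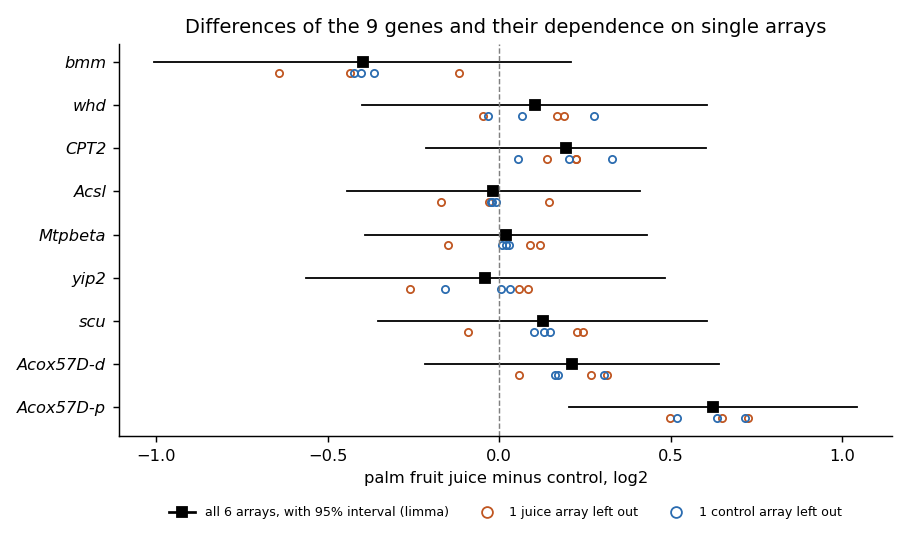
Mean difference, palm fruit juice minus control, in log2 units (horizontal axis) for each of the 9 genes, with limma's 95% interval and, below it, the differences with 1 array left out. Only the interval of Acox57D-p, 0.21 to 1.04, lies wholly on 1 side of 0, and the open circles of whd, Acsl, Mtpbeta, yip2 and scu fall on both sides.

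As a group, 6 of 9 members had a higher mean in juice larvae, beside 44.9% of all tested genes. The median difference of the members was 0.10, beside -0.03 over all tested genes. Both values leaned on juice replicate 2. Without it 4 of 9 were higher and the median was -0.05, beside 41.9% and -0.04 over all tested genes. Without it and control replicate 1 the count was 3 of 9 and the median -0.12, beside 45.9% and -0.02 over all tested genes. Apart from bmm and Acox57D-p, the differences of the remaining 7 members ran from -0.04 to 0.21. The 95% intervals of these 7 ran from -0.56 at the lowest to 0.64 at the highest, so that 2-fold differences lay outside all of them.

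Other genes of the same pathways were taken from 9 lists that leave out the members. Of 113 genes listed, 86 were tested. A higher mean in juice larvae was found in 53 of the 86, or 61.6%, beside 44.9% of all tested genes. The median difference of the 86 was 0.06, beside -0.03 over all tested genes. At unadjusted p under 0.05 there were 3, all higher, and 0 lower, beside 2.68% of all tested genes higher and 2% lower, and 0 passed after adjustment. All juice arrays lay above all control arrays in 7 of the 86 and below them in 5, beside 4.96% and 5.08% of all tested genes. The 7 were Acat1, Acbp4, bigmax, ERR, FASN2, Gpat4 and sug, and the 5 were Cat, CG5122, Jabba, Pex10 and Pex3. The balance of all genes at unadjusted p under 0.05, 57.2% of them higher as deposited, was 68.3% under quantile normalization and 75.1% once array medians were made equal.

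Of 10 lipolysis and lipid droplet genes 5 were higher, with a median of 0.02, and 0 were at unadjusted p under 0.05. Without juice replicate 2, 3 were higher and the median was -0.03, and without control replicate 1 the median was also -0.03. Jabba, a lipid droplet protein that binds histones, measured 6.78, 6.32 and 6.37 in juice replicates 1, 2 and 3, against 6.81, 6.78 and 6.90 in the control replicates. Its juice arrays all lay below its control arrays, and the difference was -0.34 ± 0.16 (SE; limma, unadjusted p = 0.0747). PAPLA1, a phospholipase of the phosphatidic acid-preferring family, differed by -0.35 ± 0.32 and was lowest in juice replicate 2, as bmm was. Lsd-1, the perilipin of the droplet surface, differed by -0.15 ± 0.20 and was highest in that array.

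In uptake and activation of fatty acids, 8 of 12 genes were higher, with a median of 0.20. Omitting control replicate 1 reduced the median to 0.08, and omitting juice replicate 2 to 0.14. The acyl-CoA-binding proteins, which carry activated fatty acids in the cytosol, held 2 of the 3 pathway genes at unadjusted p under 0.05. Acbp6 measured 6.996, 7.27 and 6.84 in juice replicates 1, 2 and 3, against 5.84, 6.91 and 5.25 in the control replicates. Control replicate 2 reached the juice range, and the other controls lay far below it. The difference was 1.03 ± 0.39 (SE; limma, unadjusted p = 0.0331, adjusted p = 0.931), and it was 0.66 without control replicate 3. Acbp4 measured 5.45, 4.17 and 3.43 in juice and 3.09, 3.41 and 3.23 in control replicates 1, 2 and 3. Its juice arrays lay above its control arrays, replicate 3 only just, and the difference of 1.11 ± 0.46 (SE; limma, unadjusted p = 0.0461, adjusted p = 0.931) was 0.56 without juice replicate 1. With single arrays left out, each of these genes missed the unadjusted threshold in 5 of 6 limma fits, and both missed it in the unmoderated test. The other family members tested, Acbp1 and Acbp3, differed by -0.12 ± 0.19 and 0.26 ± 0.47. Fatp3, of the fatty acid transport protein family, differed by -0.41 ± 0.21.

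Of 4 genes of the carnitine list beside whd and CPT2, 3 were higher (0 without juice replicate 2) and 0 passed. CG5122, a gene of the carnitine acyltransferase family, measured 3.22, 3.09 and 3.29 in juice replicates 1, 2 and 3, against 3.97, 3.36 and 3.53 in the control replicates. The groups did not overlap, and the difference was -0.42 ± 0.19 (SE; limma, unadjusted p = 0.0599). CRAT, a carnitine acetyltransferase, differed by 0.21 ± 0.24, and colt, the carnitine-acylcarnitine carrier of the inner membrane, by 0.09 ± 0.31. Both were highest in juice replicate 2.

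In mitochondrial beta-oxidation, 9 of 14 tested genes, of 19 listed, were higher, with a median of 0.05, and the count was 5 of 14 and the median -0.07 without juice replicate 2. Acat1, an acetyl-CoA acetyltransferase, measured 5.77, 6.16 and 5.61 in juice replicates 1, 2 and 3, against 5.07, 5.57 and 5.39 in the control replicates. Its groups did not overlap, with juice replicate 3 only slightly above control replicate 2. The difference was 0.50 ± 0.20 (SE; limma, unadjusted p = 0.0423, adjusted p = 0.931), and 0.34 without juice replicate 2. With single arrays left out, it missed the unadjusted threshold in 4 of 6 limma fits, and it missed it in the unmoderated test. The enoyl-CoA hydratase gene Echs1 differed by 0.42 ± 0.20 and CG8778 by 0.25 ± 0.15. As in the mitochondrial members, juice replicate 2 was the highest array in 9 of 14 genes, among them the acyl-CoA dehydrogenase genes Arc42 and Acadvl and the electron transfer flavoprotein gene wal, beside 27.1% of all tested genes.

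In peroxisomal oxidation, juice replicate 2 was the highest array in 6 of 7 tested genes, beside 27.1% of all tested genes. Of these 7, 6 had a higher mean in juice larvae, with a median of 0.07, and the count was 2 of 7 and the median -0.07 without that array. Catalase (Cat), which removes the hydrogen peroxide made by acyl-CoA oxidases, measured 10.64, 10.53 and 10.36 in juice replicates 1, 2 and 3, against 10.75, 10.73 and 10.77 in the control replicates. Each juice array lay below each control array, opposite in direction to Acox57D-p, and the difference was -0.24 ± 0.14 (SE; limma, unadjusted p = 0.118). ScpX, which carries a peroxisomal thiolase and a sterol carrier domain, differed by 0.29 ± 0.23, and Acat2 by 0.15 ± 0.17. The further acyl-CoA oxidase gene Acox3 measured 6.47, 6.67 and 6.05 in juice replicates 1, 2 and 3, against 6.09, 6.50 and 6.40 in the control replicates, with overlapping groups.

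Of 8 peroxisome assembly genes 4 were higher, with a median of 0.01, and 2 were higher, with a median of -0.13, without juice replicate 2. Pex14, a receptor-docking peroxin, differed by 0.34 ± 0.18. Pex10 and Pex3 differed by -0.23 ± 0.14 and -0.19 ± 0.14 (SE; limma, unadjusted p = 0.153 and 0.202), and 0 of the list passed. Both had all juice arrays below all control arrays, as did 5.08% of all tested genes.

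Fatty acid and triglyceride synthesis, the opposing direction of lipid metabolism, had 9 of 16 genes higher, a median of 0.09, and 0 at unadjusted p under 0.05. Malic enzyme (Men), a source of NADPH for synthesis, measured 7.14, 6.88 and 6.18 in juice replicates 1, 2 and 3, against 6.48, 6.19 and 5.72 in the control replicates. The groups overlapped, and the difference was 0.60 ± 0.30 (SE; limma, unadjusted p = 0.0792). FASN2, a fatty acid synthase, differed by 0.32 ± 0.17, and mdy, a diacylglycerol acyltransferase that forms triglyceride, by -0.34 ± 0.18. In this list juice replicate 2 was the highest array in 1 of 16 genes (Gpat4), unlike its place in the oxidation lists. That contrast between lists was not tested.

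Lipoprotein transport had 2 of 5 genes higher and a median of -0.05. Mtp, which loads lipid onto lipoproteins, differed by -0.28 ± 0.18, Apoltp by 0.28 ± 0.46 and the lipophorin receptor gene LpR2 by -0.09 ± 0.28. Among regulators of fat use, 7 of 10 were higher, with a median of 0.12 and 0 at unadjusted p under 0.05. ERR, the estrogen-related nuclear receptor, measured 4.15, 4.28 and 4.29 in juice replicates 1, 2 and 3, against 4.00, 4.00 and 4.10 in the control replicates. Its groups did not overlap, with a difference of 0.21 ± 0.13 (SE; limma, unadjusted p = 0.148). The transcription factor gene sug differed by 0.21 ± 0.14, also without overlap, and the deacetylase gene Sirt1 by -0.34 ± 0.23, with its lowest value in juice replicate 2.

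**Figure D4:**
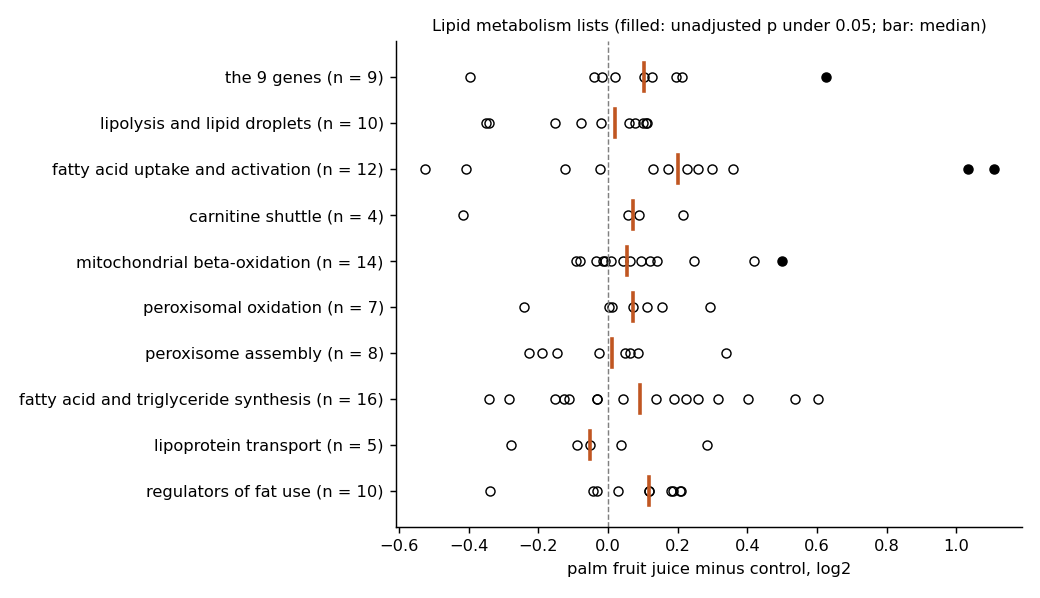
Differences, palm fruit juice minus control, in log2 units (horizontal axis) for the 9 genes and for the other tested genes of 9 lipid metabolism lists, with filled points for unadjusted p under 0.05 and a bar at each median. The medians lie between -0.05 and 0.20, and the 4 filled points are Acox57D-p, Acbp4, Acbp6 and Acat1, all above 0.

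Genes with the most similar pattern over the 6 arrays were sought among 10042 tested genes outside the 9, by the root mean square difference of centred log2 values. For bmm the nearest was Lk6, a protein kinase, at a difference of 0.03, followed by Np, l(2)k09022, spen and ct at 0.05 to 0.07. Lk6 deviated from its own mean by 0.30, -0.82 and -0.08 in juice replicates 1, 2 and 3, against 0.20, 0.25 and 0.16 in the control replicates. For the mean of the 5 mitochondrial members the nearest were CG12811, Tbcd, fusl, Wbp2 and CG7148, at 0.03 to 0.05. CG12811 deviated by -0.12, 0.39 and -0.12 in juice replicates 1, 2 and 3, against -0.19, 0.03 and 0.0003 in the control replicates. With 6 arrays, of which juice replicate 2 stands apart, such likeness is a description of these pools.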

How the data were processed

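Each deposited value is a log2 expression level for 1 row of an Affymetrix array. Per the submitters' processing notes, they were made with RMA in Affymetrix Expression Console 1.4.0.38. RMA brings the arrays' distributions together, so a shift of most transcripts would largely be removed. The medians of the deposited arrays still ran from 3.60 in juice replicate 1 to 3.77 in control replicate 1. Making the medians equal moved the share of tested genes with a higher mean in juice from 44.9% to 52.8%. The genome build is not given in the sources used here. Of 16322 rows, 13441 were annotated to 1 gene, 13064 of them found in a gene table of Release 6 plus ISO1 MT, used for names and neighbours. The brightest row per gene was kept, the dimmest 25% of genes left out, and 10051 genes compared with lmFit and eBayes (limma 3.58.1, R 4.3.3), with Benjamini-Hochberg adjustment over all of them. In each pathway list, up to 3 genes with the smallest p were named, and those named for further patterns were chosen after their values were seen. Members and lists were chosen with earlier results of these data known. No label says that pools came from separate cultures, so p-values measure the spread between pools. Tested on simulated data of 10051 genes, the procedure recovered 2.91% of genes changed by 0.50, 57.7% of those changed by 1.00 and 95.8% of those changed by 2.00 on the log2 scale, with 5.84% false calls. In the simulated data 200 genes were changed, and noise was drawn independently for each gene and array. Deviations that genes share within an array were not simulated, so these rates need not hold for the real arrays. Alternatives were leaving out each array, a replicate block, other filters, scalings, variance models, array weights and averaged rows.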

Additional observations from a re-analysis of the deposited data

How the results depend on the processing

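Under each of 16 alternatives, Acox57D-p and bmm kept their direction, as did Acox57D-d under the 15 that tested it, and no member passed at adjusted p under 0.05. For Acox57D-p, whose groups do not overlap, leaving out or weighting arrays could not have turned the direction. With single arrays left out, members at unadjusted p under 0.05 numbered 1 to 2, members with a higher mean 4 to 7, their median difference -0.0466 to 0.168, and genes called 0 to 4 (4 without palm fruit juice replicate 3, none of them a member). Leaving out control replicate 1 and juice replicate 2 together, chosen after seeing the data, gave 0 members at unadjusted p under 0.05, 3 with a higher mean and a median of -0.12, and turned whd (-0.18), CPT2 (-0.0016), Acsl (0.14), Mtpbeta (-0.15) and scu (-0.12). Array weights turned the median (-0.0064), whd (-0.021), Acsl (0.0234), Mtpbeta (-0.0808) and scu (-0.0064), and Acsl also turned under quantile normalization (0.0014) or equal array medians (0.0219). Single arrays left out turned whd (-0.0466 to 0.28), Acsl (-0.17 to 0.15), Mtpbeta (-0.15 to 0.12), yip2 (-0.26 to 0.0841) and scu (-0.092 to 0.24). The cause was not tested. Same-numbered arrays did not deviate together (correlations of -0.11, -0.07 and -0.08 across genes), so the numbers were not taken as pairs, and the replicate block changed no member's call: 1 member at unadjusted p under 0.05, 0 genes called, 484 against 470 genes at unadjusted p under 0.05. With the dimmer 50% of genes left out, Acox57D-d was not tested.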
